A study of Mus musculus with 12 samples.

Results

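The 8 genes described here carry the interferon gamma signal and 1 of its chemokine outputs. They are the cytokine Ifng, its receptor chains Ifngr1 and Ifngr2, the kinases Jak1 and Jak2, the chemokines Cxcl9 and Cxcl10, and the chemokine receptor Cxcr3. They were chosen by symbol, with results of these data already known: Cxcl9 had been the named gene with the largest rise in tumour over normal tissue under VEH. The difference of Cxcl9 in that comparison is therefore given as a description, without a test. The same holds for its HDM against VEH difference in tumours and for its interaction, which use the same VEH tumour libraries. Each of the 8 symbols matched 1 of the 78298 gene identifiers in the count table, and all 8 were among the 22190 genes with enough counts to be tested.

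RNA was sequenced from 12 mouse lung libraries. Tumours labelled LLC and normal lung beside them were dissected by hand, and each tissue came with treatment VEH or HDM, the latter spelled out in the series title as house dust mite. Each of the 4 combinations had 3 libraries, and groups are named by tissue and treatment, such as normal VEH. VEH and LLC are not spelled out in the labels, and strain, age, sex, dose and the number of mice are not given in the sources used here, nor is it said whether replicates came from separate mice. The p-values below thus measure the spread between libraries, part of which may be technical.

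Interferon gamma is released mainly by T and natural killer (NK) cells. It binds a receptor made of IFNGR1 and IFNGR2, which activates the kinases JAK1 and JAK2 and, through them, changes transcription. CXCL9 and CXCL10 are chemokines that many cells, macrophages among them, make in response to interferon, and both attract cells bearing CXCR3, which in the lung are chiefly activated T cells and NK cells.

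Cxcl9 and Cxcl10 lie next to each other on the minus strand of chromosome 5 in GRCm39, with 18551 bases between them, and Cxcl11, the gene of the third CXCR3 ligand, follows after a further 10654 bases. The 250 bases before each annotated start are shown because these 2 genes are the chemokines of the group, and both were higher in tumours than in normal tissue. They were read from GRCm39, at chr5:92475946-92476195 for Cxcl9 and chr5:92496749-92496998 for Cxcl10, both on the minus strand, and capitals mark bases in a motif match:
Cxcl9: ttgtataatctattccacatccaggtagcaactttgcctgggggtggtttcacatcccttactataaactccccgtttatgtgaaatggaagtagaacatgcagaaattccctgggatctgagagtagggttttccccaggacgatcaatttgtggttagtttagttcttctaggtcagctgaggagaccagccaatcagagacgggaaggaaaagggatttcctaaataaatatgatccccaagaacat
Cxcl10: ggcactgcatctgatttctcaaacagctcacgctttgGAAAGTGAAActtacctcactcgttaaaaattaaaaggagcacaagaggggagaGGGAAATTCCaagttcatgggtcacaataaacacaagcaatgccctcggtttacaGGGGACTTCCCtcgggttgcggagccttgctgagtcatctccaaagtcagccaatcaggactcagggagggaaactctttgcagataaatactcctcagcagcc
The motifs searched, on both strands, were these: GAS, written TTCNNNGAA, an element found at interferon gamma targets; ISRE, written GAAANNGAAA, an element bound by interferon regulatory factors; and the NF-kB motif. The Cxcl10 stretch held 1 ISRE match, GAAAGTGAAA, whose first base lies 213 bases before the start. It also held 3 NF-kB matches, GGGAAATTCC from 159 bases before the start and the overlapping pair GGGGACTTCC and GGGACTTCCC from 104 and 103 bases before it. The Cxcl9 stretch held no match to any of them. Only exact matches were counted, so elements that differ from these motifs would be missed. An ISRE match was found in 3.44%, a GAS match in 7.82% and an NF-kB match in 6.94% of the 21770 stretches of the same length before protein-coding genes. Of the other 6 members, Ifng had 1 GAS match, Jak2 1 GAS match and Ifngr2 1 NF-kB match, and the remaining 3 had none. The RefSeq promoter table, on build GRCm38.p6, places the Cxcl10 start at the same base, and its Cxcl9 start differed by 7 bases.

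The libraries held 20608682 to 32765364 counts, of which mitochondrial genes took 0.342% to 5.38%. Levels are given as CPM, the counts of a gene in 1000000 counts of a library whose total was scaled by TMM, a method that corrects for a few very abundant genes. The library names share 6 prefixes, each borne by 1 normal and 1 tumour library, and 2 of these prefixes join libraries with different treatment labels. One is shared by tumour HDM replicate 2 and normal VEH replicate 2, the other by tumour VEH replicate 3 and normal HDM replicate 3. In tumours the first number of that prefix also separates VEH from HDM, so that number and the treatment cannot be told apart. Tumour HDM replicate 3 stood apart from the other HDM tumours most in epithelial markers: alveolar markers summed to 48.5 CPM there, against 2526 and 2596 CPM, and airway markers to 23.8 CPM, against 786 and 1192 CPM. Its 14 T and NK cell markers summed to 4.73 CPM, against 26.6 and 31.7 CPM. Its macrophage and monocyte markers had a mean log2 CPM of 6.42, between 6.33 and 6.57 in the others. In bulk tissue, fewer cells of a type and less RNA per cell cannot be told apart.

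The members fell into 3 patterns over the groups. Cxcl9 and Cxcl10 were low in normal tissue, highest in VEH tumours and intermediate in HDM tumours. Cxcr3 was highest in VEH tumours and, in HDM tumours, as low as or lower than in most normal libraries. The receptor chains and kinases, which were abundant everywhere, differed between group means by under 2-fold, and Ifng was close to the limit of detection throughout.

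**Figure D1:**
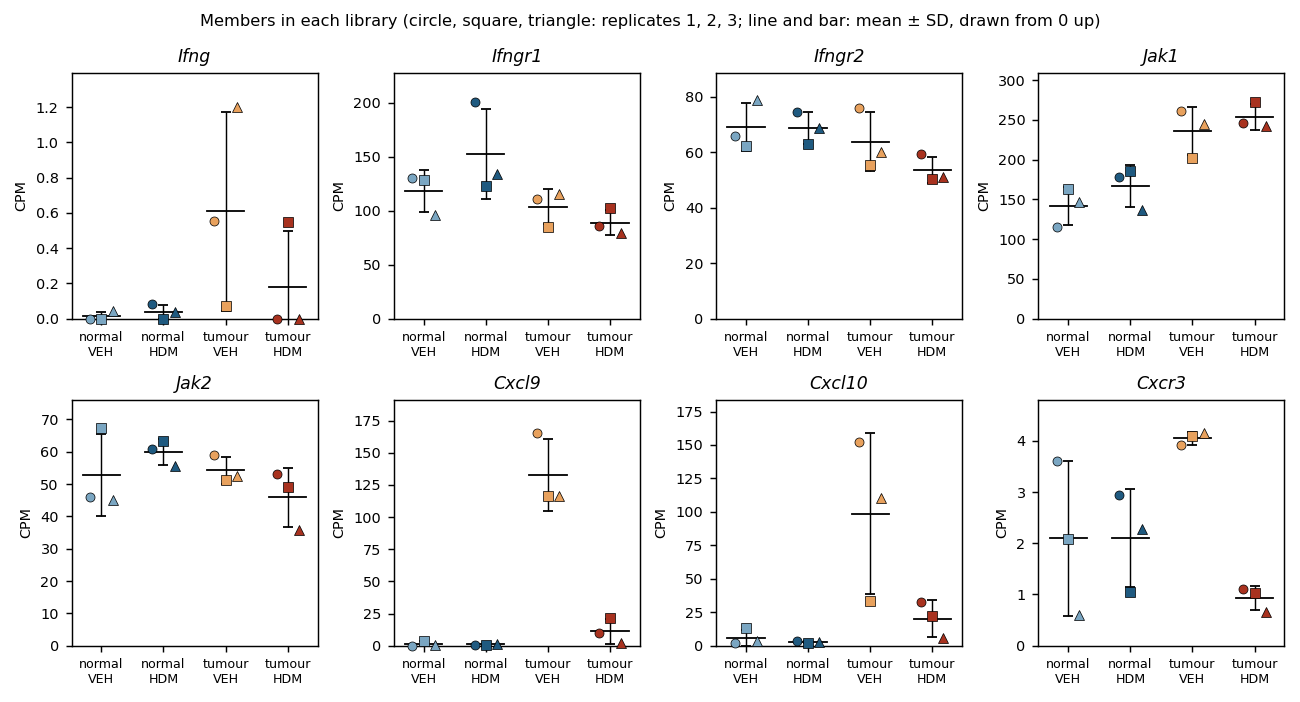
CPM of each member (vertical axes, linear from 0) in the 12 libraries of the 4 groups. Points are libraries, horizontal lines group means and bars SD; Cxcl9 reached 116 to 165 CPM in VEH tumours and no more than 21.6 CPM in any other library.

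Ifng (ENSMUSG00000055170, chromosome 10, 118276951 to 118281797) had 61 counts in all. In normal VEH replicates 1, 2 and 3 it had 0, 0 and 1 counts, and in normal HDM 2, 0 and 1 counts. In VEH tumours it had 13, 2 and 26 counts. In HDM tumours all 16 counts were in replicate 2, and the other 2 libraries had 0. A count of 0 allows up to 3 counts, which is 0.0910 to 0.138 CPM depending on the library. The highest level, 1.20 CPM in tumour VEH replicate 3, was thus above this limit, as were tumour VEH replicate 1 (0.552 CPM) and tumour HDM replicate 2 (0.546 CPM).

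Pooled over libraries, the Ifng rate was 45.4 times higher in VEH tumours than in VEH normal tissue (41 against 1 counts, 95% exact interval 7.71 to 1837, counting error only). Under HDM the ratio was 4.81 (16 against 3 counts, interval 1.38 to 25.7). In edgeR's quasi-likelihood test, which also takes in the spread between libraries, neither difference passed after Benjamini-Hochberg adjustment over all genes. The adjusted p was 0.057 under VEH (log2 fold change 5.11 ± 1.94; errors of log2 differences are SE throughout) and 0.327 under HDM (2.11 ± 1.73). The VEH difference passed by DESeq2 (adjusted p = 0.0379) and in edgeR without tumour VEH replicate 2 (0.0452). Ifng had the minimum count of 10 only in tumour VEH replicates 1 and 3 and tumour HDM replicate 2. It thus passed the filter on low counts through tumours alone. The p-values of its tumour-normal differences are therefore a description and not support. The VEH log2 fold change was 7.02 without normal VEH replicate 3, which holds the only count of its group, and 4.25 without tumour VEH replicate 3. The HDM value rests on tumour HDM replicate 2 and was -3.15 without it. Leaving out replicate 1 of normal HDM gave 3.01, and leaving out replicate 1 or 3 of tumour HDM gave 2.78 and 2.81. The fitted values of this gene depend on the small number added to counts and are not bounds.

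Ifngr1 (ENSMUSG00000020009, chromosome 10, 19467697 to 19485977), the chain that binds the cytokine, was at 130, 128 and 96.2 CPM in VEH normal tissue (replicates in order, here and below). It was at 200, 123 and 134 CPM in normal HDM, 110, 85.1 and 115 CPM in tumour VEH, and 85.4, 102 and 79.4 CPM in tumour HDM. All 3 HDM tumours lay below all 3 HDM normal libraries, and the VEH groups overlapped. Ifngr1 fell in tumours under HDM by 0.77 ± 0.21 on the log2 scale (edgeR adjusted p = 0.0111). This call was lost without the 4 libraries of conflicting prefixes and without tumour HDM replicate 1 or 3, with an adjusted p of up to 0.105 among the fits that each left out 1 library. Under VEH the difference was -0.19 ± 0.21 (adjusted p = 0.481), with a 95% interval from -0.66 to 0.27.

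Ifngr2 (ENSMUSG00000022965, chromosome 16, 91343906 to 91362512), the chain needed for signalling, was between 62.3 and 78.9 CPM in the 6 normal libraries. It was at 75.7, 55.5 and 60.2 CPM in tumour VEH and 59.2, 50.5 and 51.1 CPM in tumour HDM. The HDM tumours lay below the HDM normal libraries, but the difference, -0.36 ± 0.15, did not pass (edgeR adjusted p = 0.0687). It did pass with DESeq2's size factors (0.0392), among genes with at least 10 counts in every library (0.0167) and by DESeq2 (0.0321). Per transcript length, Ifngr1 was 2.32 ± 0.61 times Ifngr2 in normal VEH, 2.91 ± 0.56 in normal HDM, 2.16 ± 0.32 in tumour VEH and 2.22 ± 0.41 in tumour HDM (mean ± SD, n = 3 each). These ratios overlapped between all pairs of groups except normal HDM, at 2.58 to 3.55, and tumour VEH, at 1.93 to 2.53.

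Jak1 (ENSMUSG00000028530, chromosome 4, 101008838 to 101122487), a kinase shared by many cytokine receptors, was at 116, 163 and 147 CPM in normal VEH and 178, 186 and 137 CPM in normal HDM. It was at 262, 202 and 245 CPM in tumour VEH and 247, 273 and 242 CPM in tumour HDM. Every tumour library lay above every normal library. Jak1 rose in tumours by 0.74 ± 0.17 on the log2 scale under VEH (edgeR adjusted p = 0.00754) and by 0.60 ± 0.17 under HDM (adjusted p = 0.0126), 1.67-fold and 1.52-fold. The HDM call was lost with the prefix block and without the 4 libraries of conflicting prefixes (adjusted p of up to 0.0929). Raver2, on the opposite strand, overlaps Jak1 but had 4643 counts against 63383 and was lower in tumours, at 2.67 CPM in VEH tumours and 26.6 CPM in VEH normal tissue.

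Jak2 (ENSMUSG00000024789, chromosome 19, 29228677 to 29290505), the kinase bound to IFNGR2, was at 45.9, 67.5 and 45.2 CPM in normal VEH and 61.0, 63.4 and 55.6 CPM in normal HDM. It was at 59.0, 51.3 and 52.4 CPM in tumour VEH and 53.1, 49.2 and 35.7 CPM in tumour HDM. The VEH groups overlapped and the HDM tumours lay below the HDM normal libraries, without passing the test (-0.38 ± 0.19, edgeR adjusted p = 0.111). That difference did pass among genes with at least 10 counts in every library (0.0357) and with the prefix block (0.0476). The ratio of Jak1 to Jak2 per transcript length was 1.90 ± 0.32 in normal VEH, 1.93 ± 0.18 in normal HDM, 3.03 ± 0.26 in tumour VEH and 3.94 ± 0.75 in tumour HDM (mean ± SD, n = 3 each). Its lowest tumour value, 2.75, was above its highest normal value, 2.26.

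Cxcl9 (ENSMUSG00000029417, chromosome 5, 92469206 to 92475945) was nearly absent from normal VEH tissue, with 0.0821, 3.71 and 0.674 CPM, and from normal HDM tissue, with 0.778, 0.604 and 1.69 CPM. In VEH tumours it was at 165, 116 and 116 CPM, and in HDM tumours at 9.61, 21.6 and 2.15 CPM. The VEH tumours lay above all other libraries, and the lowest HDM tumour lay above every HDM normal library but below normal VEH replicate 2. The group order was thus VEH tumours, HDM tumours, and then the normal groups, which overlapped each other. In the comparison that had drawn attention to Cxcl9, the log2 fold change was 6.43 ± 1.16, and it was 8.45 without normal VEH replicate 2. Under HDM, Cxcl9 rose by 3.43 ± 1.05, 10.8-fold (edgeR adjusted p = 0.0191). That call was lost without normal HDM replicate 1 or 2 or tumour HDM replicate 2 (adjusted p of up to 0.0682), with no filter on low counts, and with the library-name prefix as a block (adjusted p of up to 0.119). The value was 2.63 without tumour HDM replicate 2, 4.06 without tumour HDM replicate 3 and 4.12 without normal HDM replicate 3.

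Cxcl10 (ENSMUSG00000034855, chromosome 5, 92494497 to 92496748) was at 2.05, 12.9 and 3.20 CPM in normal VEH and 3.60, 2.34 and 2.80 CPM in normal HDM. It was at 152, 33.6 and 110 CPM in VEH tumours and 32.9, 22.5 and 5.46 CPM in HDM tumours. Within each treatment the tumours lay above the normal libraries, and the VEH tumours lay above the HDM tumours by a narrow margin (33.6 against 32.9 CPM). Per transcript length the VEH and HDM tumours overlapped. Cxcl10 rose in tumours by 4.02 ± 0.87 under VEH (edgeR adjusted p = 0.00589; 5.23 without normal VEH replicate 2) and by 2.79 ± 0.84 under HDM (adjusted p = 0.0178), 16.2-fold and 6.94-fold. The HDM call was lost without tumour HDM replicate 1 or normal HDM replicate 2 (adjusted p of up to 0.0615), without the 4 libraries of conflicting prefixes, with no filter, and with the prefix block (adjusted p of up to 0.154). The value was 3.38 without tumour HDM replicate 3. Art3 overlaps Cxcl10 on the opposite strand with 2870 counts against 9277. Its mean was 11.7 and 12.5 CPM in the normal groups, 10.03 CPM in VEH tumours and 2.999 CPM in HDM tumours. It was thus not higher in tumours than in normal tissue, and it was lower in HDM than in VEH tumours, as Cxcl10 was. The counting is not stated to use strand, and how reads in the overlap were assigned was not tested.

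Both chemokines were compared with each other per transcript length. The ratio of Cxcl9 to Cxcl10 was 0.134 ± 0.095 in normal VEH, 0.269 ± 0.160 in normal HDM, 1.39 ± 1.03 in tumour VEH and 0.410 ± 0.269 in tumour HDM (mean ± SD, n = 3 each). The VEH tumours had ratios of 0.810, 2.59 and 0.789, all above the highest of the other 9 libraries, 0.717 in tumour HDM replicate 2. Tumour VEH replicate 2, where the ratio was largest, was the VEH tumour with the lowest Cxcl10 and a Cxcl9 level about equal to that of replicate 3.

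Cxcr3 (ENSMUSG00000050232, chromosome X, 100775141 to 100777875) was at 3.61, 2.08 and 0.589 CPM in normal VEH and 2.95, 1.06 and 2.28 CPM in normal HDM. It was at 3.91, 4.09 and 4.15 CPM in VEH tumours and 1.11, 1.02 and 0.667 CPM in HDM tumours. The VEH tumours were above all other libraries and close to each other, and the HDM tumours overlapped both normal groups at their lower end. Neither tumour-normal difference passed the test: it was 0.95 ± 0.58 under VEH (edgeR adjusted p = 0.205; 1.59 without normal VEH replicate 1) and -1.17 ± 0.59 under HDM (adjusted p = 0.121).

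Cd3e, a chain of the T cell receptor complex, was set beside Cxcr3 in each library. In VEH tumours Cd3e was at 7.73, 5.28 and 8.49 CPM, and in HDM tumours at 2.14, 2.66 and 0.0607 CPM. Cxcr3 had 0.505, 0.775 and 0.489 counts per Cd3e count in VEH tumours and 0.519, 0.385 and 11 in HDM tumours. The last value comes from 22 Cxcr3 and 2 Cd3e counts in replicate 3. Of the other 2 HDM tumours, 1 lay within and 1 below the range of the VEH tumours in this ratio, while their Cxcr3 levels, 1.11 and 1.02 CPM, were below all VEH tumours. In normal tissue the ratio ranged from 0.318 to 1.54.

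**Figure D2:**
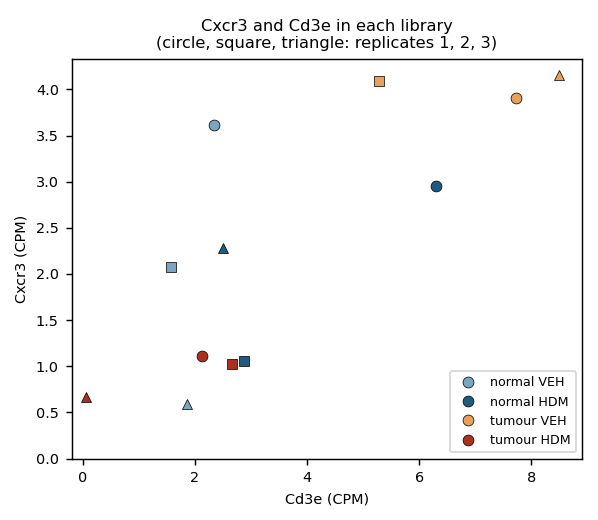
Cxcr3 CPM (vertical) against Cd3e CPM (horizontal) in each of the 12 libraries. The 3 VEH tumours lie at Cxcr3 levels of 3.91 to 4.15 CPM and Cd3e levels of 5.28 to 8.49 CPM, and the 3 HDM tumours lie at or below 1.11 and 2.66 CPM.

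To compare genes with each other, levels were also expressed as TPM, its share of 1000000 transcripts, from the gene lengths in the count table. In VEH normal tissue the order was Ifngr1 (79.5 TPM), Jak1 (38.1), Ifngr2 (34.7), Jak2 (20.5), Cxcl10 (5.68), Cxcr3 (2.26), Cxcl9 (1.08) and Ifng (0.0194). In VEH tumours it was Cxcl10 (128), Cxcl9 (125), Ifngr1 (104), Jak1 (92.8), Ifngr2 (48.0), Jak2 (30.4), Cxcr3 (6.59) and Ifng (1.40). There the first 4 overlapped between libraries, Cxcl10 running from 37.0 to 198 TPM and Cxcl9 from 95.7 to 160 TPM. In HDM tumours Jak1 (119) and Ifngr1 (106) came first and both chemokines lay below Ifngr2 (48.4), Cxcl10 at 30.7 and Cxcl9 at 12.3 TPM. Cxcl10 overlapped both Jak2 (31.1) and Ifngr2 between libraries there.

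**Figure D3:**
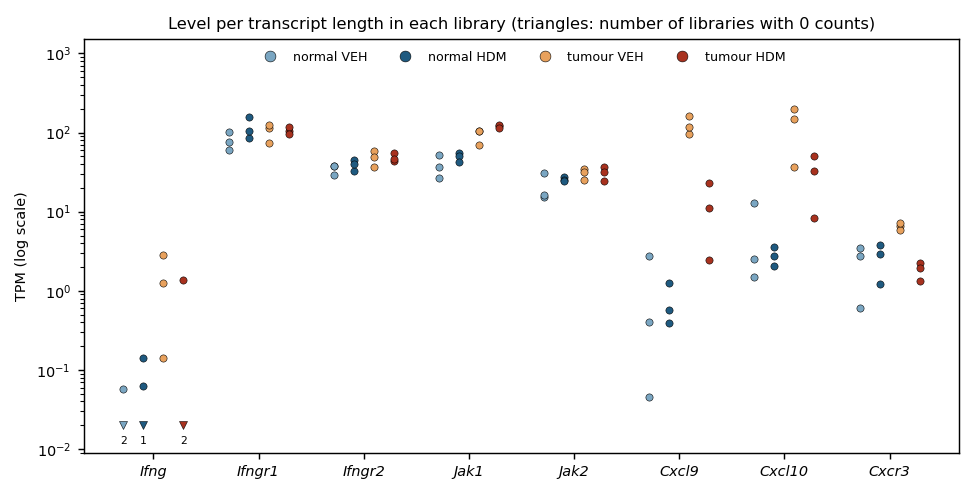
TPM of the 8 members (vertical axis, log scale) in each library, by group. Triangles at the bottom mark groups with libraries at 0 counts and give their number; Cxcl9 ran from 0.0451 to 160 TPM, and Ifngr1 from 60.5 to 158 TPM.

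Counted over the members, 3 of 8 were called higher and 0 lower in tumours under VEH, at an edgeR adjusted p below 0.05: Cxcl9, Cxcl10 and Jak1. Of all genes tested, 18.2% were called higher and 20.6% lower in that comparison. Under HDM the same 3 genes were called higher and Ifngr1 lower, against 23% and 28.9% of all genes. Ranges that did not overlap were found for 5 members under VEH, all higher in tumours (Ifng, Jak1, Cxcl9, Cxcl10 and Cxcr3), where 23.9% of all genes were higher and 28.5% lower in this way. For Ifng this rests on 2 counts (0.0744 CPM) in tumour VEH replicate 2. The 0 counts of normal VEH replicates 1 and 2 allow up to 0.123 and 0.0944 CPM, so Ifng is not shown to be separated. Under HDM ranges did not overlap for 3 members higher and 3 lower (Ifngr1, Ifngr2 and Jak2), against 29.6% and 33.5% of all genes. These ranges are in CPM. In TPM the means of Ifngr2 and Jak2 were higher in HDM tumours than in HDM normal tissue (48.4 against 39.3, and 31.1 against 25.6). Their direction thus depends on the scale. The Ifngr1 mean was lower in TPM too (106 against 116). Its TPM ranges overlapped, however, at 95.5 to 117 in HDM tumours and 85.4 to 158 in HDM normal tissue. Under VEH its mean was lower in tumours in CPM (104 against 118) but higher in TPM (104 against 79.5), so its direction depends on the scale there. Since Cxcl9 was known beforehand, the counts of members are a description. The median log2 fold change of all genes was -0.11 under VEH and -0.078 under HDM.

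HDM against VEH in tumours was the comparison in which the chemokines and their receptor differed in level within one tissue. Cxcl9 was 11.9 times, Cxcl10 4.88 times and Cxcr3 4.33 times lower in HDM tumours, and for these 3 the ranges in CPM did not overlap. In TPM the Cxcl10 ranges overlapped, with 37.0 in tumour VEH replicate 2 and 51.2 in tumour HDM replicate 1. On the log2 scale the differences were -3.58 ± 1.00, -2.29 ± 0.81 and -2.12 ± 0.60. The value of Cxcl9 is a description, since its level in these VEH tumours led to its choice. Cxcl10 and Cxcr3 did not pass edgeR's test over all genes, with adjusted p of 0.226 and 0.178 and unadjusted p of 0.0171 and 0.005. DESeq2, run as an alternative on the same counts, called both (adjusted p of 0.0431 and 0.0140), but it called 1311 of all genes there, against 21 by edgeR. In that comparison edgeR called 0.00901% of genes higher and 0.0856% lower, and ranges did not overlap for 11.3% of genes in the higher and 10.7% in the lower direction. The other 5 members overlapped: Ifngr1 (-0.22 ± 0.21), Ifngr2 (-0.25 ± 0.15), Jak1 (0.10 ± 0.17), Jak2 (-0.24 ± 0.19) and Ifng (-1.70 ± 1.46). The interval for Jak1 ran from -0.27 to 0.48. Without tumour HDM replicate 3, Cxcl9 was at -3.06, Cxcl10 at -1.81 and Cxcr3 at -1.89, and without tumour HDM replicate 2 Cxcl9 was at -4.49. Ifng was at -7.06 without tumour HDM replicate 2, which holds all counts of its group, at -0.72 without tumour VEH replicate 3 and at -1.09 without tumour HDM replicate 3.

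**Figure D4:**
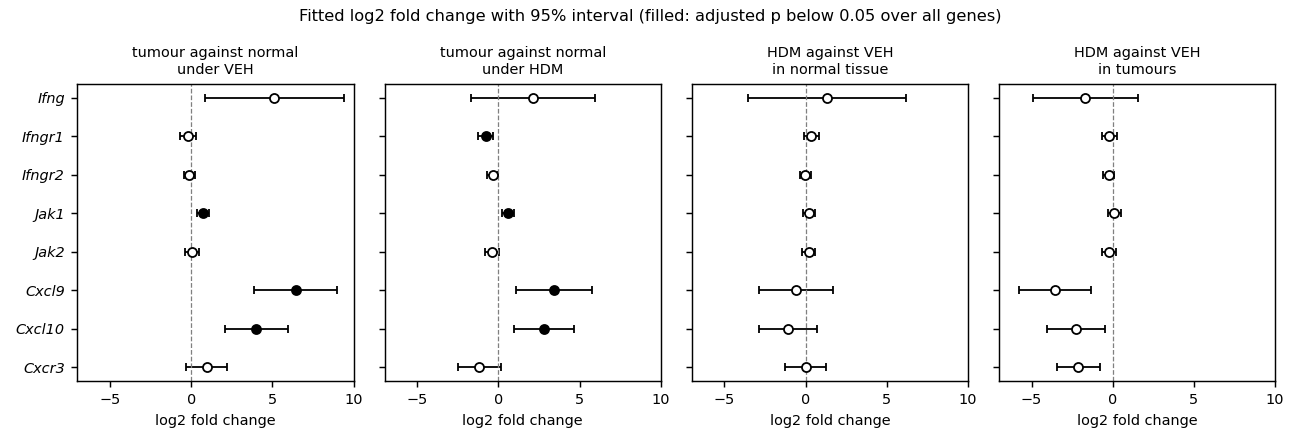
Log2 fold change (horizontal axes) of the 8 members in 4 comparisons, with 95% intervals from the fit across all genes; filled points passed the adjusted threshold, and the Cxcl9 points under VEH and between tumour groups are descriptions. The Ifng points of tumour against normal tissue are descriptions too. In HDM against VEH tumours the intervals of Cxcl9, Cxcl10 and Cxcr3 lie below 0 but no point is filled.

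In normal tissue HDM and VEH gave no called member and overlapping ranges for all 8, and 0% of all genes were called, with non-overlapping ranges for 4.47% higher and 5.85% lower. At an unadjusted p below 0.05 edgeR found 1230 genes there, and DESeq2 called 43. The member differences ran from -1.06 ± 0.81 for Cxcl10 to 1.31 ± 2.21 for Ifng. The interval was narrow for Ifngr2, -0.34 to 0.32, and wide for Cxcl9, -2.85 to 1.71. Normal VEH replicate 2 held the highest Cxcl9 and Cxcl10 of the 6 normal libraries, and without it Cxcl9 was at 1.44 and Cxcl10 at 0.15. Cxcl9 was at -1.17 without normal HDM replicate 3, and Cxcr3 at 0.64 without normal VEH replicate 1. Ifng was at 3.22 without normal VEH replicate 3 and 0.40 without normal HDM replicate 1.

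Whether treatment changed the tumour-normal difference was tested by the interaction. It was not called for any of the 8, nor for any of all genes tested (0%; 2084 genes had an unadjusted p below 0.05, and DESeq2 called 222). The largest values were -3.01 ± 1.40 for Cxcl9, as a description, -3.01 ± 2.75 for Ifng (edgeR adjusted p = 0.715) and -2.12 ± 0.83 for Cxcr3 (edgeR adjusted p = 0.512, unadjusted 0.0269). Single libraries moved these values. Cxcl9 was at -5.02 without normal VEH replicate 2, -3.88 without tumour HDM replicate 2 and -2.39 without normal HDM replicate 3. Cxcr3 was at -2.76 without normal VEH replicate 1, and Cxcl10, at -1.22 with all libraries, was at -2.44 without normal VEH replicate 2. For Ifng the values ran from -8.36 without tumour HDM replicate 2 to -2.02 without tumour VEH replicate 3, and leaving out normal VEH replicate 3 gave -4.91. So the larger chemokine rise under VEH than under HDM is not shown to depend on treatment.

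Taking the 6 library-name prefixes as pairs, without knowing whether a prefix marks 1 mouse, Cxcl9, Cxcl10 and Jak1 were higher in the tumour library in 6 of 6. The ratio ran from 2.77 to 2012 for Cxcl9, from 1.51 to 74.1 for Cxcl10 and from 1.33 to 2.26 for Jak1. The value of 2012 divides by 2 counts (0.0821 CPM) in normal VEH replicate 1, below the limit of 3 counts (0.123 CPM there), and is not exact. Ifngr1 was lower in 6 of 6 (0.396 to 0.885) in CPM, the scale of all these ratios. In TPM it was lower only in the pair of tumour HDM replicate 3 and normal HDM replicate 1 (95.5 against 158). It was higher in the tumour library of every other pair in TPM, so its direction depends on the scale. Cxcr3 was higher in 4 and lower in 2, Ifngr2 higher in 1 and lower in 5, and Jak2 higher in 2 and lower in 4. How many of all genes kept 1 direction in 6 of 6 was not counted, and Cxcl9 was known beforehand. The counts of pairs are therefore a description. The smallest chemokine ratios were in the pair of tumour HDM replicate 3, the library low in epithelial and in T and NK cell markers.

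The other ligand and receptor genes beside CXCR3 were Cxcl11, Pf4, Dpp4, which encodes a protease that trims these chemokines, and Ackr3, a scavenging receptor for CXCL11 and CXCL12. Of the latter 3, 0 rose and 2 fell in tumours under VEH, and 1 rose and 2 fell under HDM. Over all genes 18.2% were called higher and 20.6% lower under VEH, and 23% and 28.9% under HDM. Cxcl11 had 0, 0 and 2 counts in normal VEH, 0 in each normal HDM library, 67, 28 and 48 in VEH tumours and 20, 2 and 0 in HDM tumours. Its counts are given without a test, since it had enough of them only in tumours, and under HDM most were in 1 library. It also lies opposite Art3, which had 2870 counts against 167, and is uncertain for that reason too. Dpp4 fell by 2.73 ± 0.58 under VEH and by 4.09 ± 0.62 under HDM (adjusted p = 0.00535 and 0.000574), from 84.9 CPM in VEH normal tissue to 12.8 CPM in VEH tumours. Ackr3 fell by 1.70 ± 0.42 and 1.57 ± 0.42 (adjusted p = 0.0105 and 0.0103). All 8 endothelial markers were called lower in both comparisons too (list medians -2.64 and -3.64). All 9 alveolar epithelium markers had values below 0 in both (medians -2.59 and -4.16). Whether the falls of Dpp4 and Ackr3 go with these was not tested. Pf4, known mainly from platelets and bone-marrow-derived cells, rose by 1.27 ± 0.43 under HDM (adjusted p = 0.0293).

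Of 13 genes that induce interferon gamma or mark cells committed to making it, 12 were tested, since Il12a had too few counts. Under VEH 4 rose and 0 fell in tumours: Il27, Il12rb1, Il18rap and Tbx21. Under HDM Il27, Il12rb1 and Il18rap rose and Il18r1 and Tbx21 fell. Over all genes 18.2% were called higher and 20.6% lower under VEH, and 23% and 28.9% under HDM. The list medians were 1.17 and -0.58. Tbx21, the transcription factor that directs T cells to interferon gamma production, was at 2.38, 1.86 and 2.86 CPM in VEH tumours and 0.164, 0.342 and 0.243 CPM in HDM tumours. It rose by 2.05 ± 0.59 under VEH (edgeR adjusted p = 0.0192) and fell by 1.91 ± 0.60 under HDM (0.0216). Il12rb1, a chain of the interleukin 12 receptor, rose in both, by 3.48 ± 0.49 and 2.57 ± 0.47 (adjusted p = 0.000749 and 0.00138). Il18rap, the accessory chain of the interleukin 18 receptor, went from 12.5 CPM in VEH normal tissue to 74.6 CPM in VEH tumours and 154 CPM in HDM tumours. It thus ran opposite to Tbx21 between the tumour groups, although HDM against VEH in tumours called neither (adjusted p = 0.559 and 0.0936). Il27 lies opposite Apobr (22814 counts against 650), and its values are uncertain.

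Genes of the type I interferon pathway that share kinases or targets with interferon gamma were looked at beside the members. Stat2 and Irf9, partners in type I interferon signalling, rose in tumours under VEH by 1.58 ± 0.45 and 0.68 ± 0.22 (edgeR adjusted p = 0.0199 and 0.0332), and Irf9 fell under HDM by 0.92 ± 0.22 (0.00606). The Stat2 ranges overlapped, at 28.0 to 110 CPM in VEH tumours and 21.8 to 30.2 CPM in VEH normal tissue. Irf9 was at 67.0, 45.2 and 63.3 CPM in VEH tumours and 29.8, 21.9 and 16.6 CPM in HDM tumours. Of the type I interferon receptor chains, Ifnar1 rose in both comparisons (0.49 ± 0.17 and 0.71 ± 0.17) and Ifnar2 fell in both (by 0.58 ± 0.20 and 0.86 ± 0.21).

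The 22 known interferon gamma targets were not independent of earlier results of these data, in which interferon-response and antigen presentation genes had been described. Under VEH 6 of 22 rose and 0 fell in tumours: Ciita, which switches on class II genes, the GTPases Gbp3, Igtp, Irgm1 and Iigp1, and the peptide transporter gene Tap1. Under HDM 0 rose and 9 fell: Ciita, Gbp4, Irgm2, Ido1, the immunoproteasome subunits Psmb8 and Psmb9, and the class II genes H2-Aa, H2-Ab1 and Cd74. Over all genes 18.2% were called higher under VEH and 28.9% lower under HDM. The list medians were 0.97 and -0.85. Ciita is in both sets, at 1.34 ± 0.43 under VEH and -1.81 ± 0.43 under HDM. Irgm1 was at 34.7, 33.7 and 34.0 CPM in normal VEH, 187, 114 and 180 CPM in VEH tumours, and 44.2, 44.1 and 14.8 CPM in HDM tumours. It rose by 2.23 ± 0.35 under VEH (edgeR adjusted p = 0.00132). Nos2 and Cd274, which macrophages and tumour cells can raise under interferon gamma, were not called in either comparison. Counts of calls moved with the libraries used: leaving out 1 library gave 4 to 8 higher under VEH and 7 to 8 lower under HDM, and without the 4 libraries of conflicting prefixes they were 2 and 5. Under VEH the count was 11 with library size only and 12 with only the compared groups. Under HDM 2 were called higher without tumour HDM replicate 3 and 1 without normal HDM replicate 1, and 12 were called lower by DESeq2 and among genes with at least 10 counts in every library.

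Between tumour groups, 3 of the 22 targets were called lower in HDM than in VEH tumours, Psmb8, Psmb9 and H2-Ab1, and 0 higher. The list median was -2.13, against -0.035 over all genes, and ranges did not overlap for 20 of 22, all lower in HDM tumours. Over all genes 0.0856% were called lower there, and 10.7% had ranges that did not overlap in this direction. Psmb8 was at 100, 111 and 90.3 CPM in VEH tumours and 27.5, 29.3 and 12.0 CPM in HDM tumours, a difference of -2.13 ± 0.28 (edgeR adjusted p = 0.0340). Psmb9 was at 67.7, 59.8 and 55.2 CPM against 19.2, 16.6 and 6.82 CPM (adjusted p = 0.0446). H2-Ab1 was at 922, 913 and 701 CPM against 177, 128 and 41.9 CPM (adjusted p = 0.0446). These calls depend on the libraries and tool: the count was 0 in each of 5 fits that left out tumour VEH replicate 1, 2 or 3 or tumour HDM replicate 1 or 2, 9 without tumour HDM replicate 3, 0 without the 4 libraries of conflicting prefixes, 0 with either block or with only the compared groups, 1 with DESeq2's size factors or library size only, 7 among genes with at least 10 counts in every library, and 19 by DESeq2. Over all genes DESeq2 called 1311 in either direction there, against 21 by edgeR. Psmb9 and Tap1 lie opposite each other, as do Psmb8 and Gm20496, and Ciita and Dexi. H2-Aa lies opposite H2-Eb1 (116337 counts against 125811) and Irgm2 opposite a gene without a symbol (4925 against 16917). Irgm1 lies opposite Gm74350 (2579 against 19772). All these genes are less certain.

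Of 7 inhibitors of the pathway, 1 rose and 1 fell in tumours in each comparison, below the shares of all genes in both directions under VEH (18.2% and 20.6%) and under HDM (23% and 28.9%). Socs1, the direct inhibitor of the receptor's kinases and itself induced by interferon gamma, rose under VEH by 1.98 ± 0.47 (edgeR adjusted p = 0.00809), from 10.5, 4.69 and 3.62 CPM to 28.3, 20.6 and 25.4 CPM. Under HDM it was at 0.87 ± 0.46 (adjusted p = 0.132). Ptpn2, a phosphatase that acts on JAK1, rose under HDM by 0.72 ± 0.23 (adjusted p = 0.0221). Pias1, an inhibitor of cytokine signalling, fell in both, by 0.72 ± 0.15 and 0.71 ± 0.15. The list medians were 0.37 and -0.05.

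**Figure D5:**
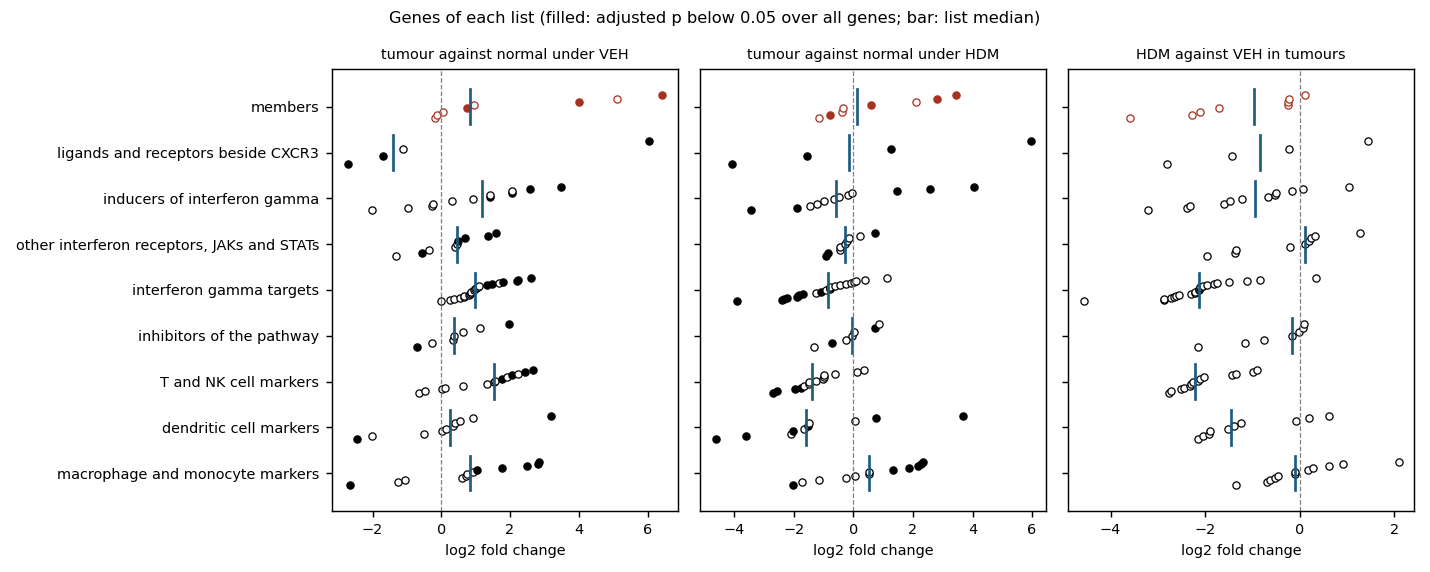
Log2 fold change (horizontal axes) of the members and of the genes of each pathway or cell type list in 3 comparisons; each point is a gene, filled where it passed the adjusted threshold, and bars are list medians. The interferon gamma targets and the T and NK cell markers have medians of 0.97 and 1.54 under VEH, -0.85 and -1.38 under HDM, and -2.13 and -2.20 between tumour groups.

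Cell type markers moved with these values. Of 14 T and NK cell markers, 4 rose in tumours under VEH (Cd4, Cd8a, Cd8b1 and Gzmb) and 4 fell under HDM (Cd2, Cd4, Klrb1c and Gzma), against 18.2% and 28.9% of all genes, so the count under HDM is at the share of all genes. Between tumour groups none was called by edgeR and 7 were lower by DESeq2, which called 1311 of all genes in either direction. Non-overlapping lower ranges were found for 11 of 14 markers (10.7% of all genes), and the list median was -2.20. Their summed level was 33.8 to 42.1 CPM in normal VEH, 45.0 to 65.8 CPM in normal HDM, 75.2 to 107 CPM in VEH tumours and 4.73 to 31.7 CPM in HDM tumours. No marker of the 14 was at 0 in any library, and in tumour HDM replicate 3 Cd3e, Cd8b1 and Trac had 2 counts each. The 4 calls under VEH fell to between 0 and 3 when 1 library was left out and were 7 by DESeq2 and with only the compared groups, and the 4 under HDM were between 2 and 6 over all alternatives. The part of these cells in the levels of Cxcr3, Ifng and the chemokines was not tested.

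Of 12 macrophage and monocyte markers, 5 rose and 1 fell in tumours under each treatment, against the all-gene shares given above (18.2% and 20.6% under VEH, 23% and 28.9% under HDM). Between tumour groups 0 were called, with a median of -0.11. The complement genes C1qa, C1qb and C1qc, typical of tissue macrophages, rose in both. Of 10 dendritic cell markers, 1 rose and 1 fell under VEH and 2 rose and 4 fell under HDM. Their median between tumour groups was -1.45, with non-overlapping lower ranges for 7 of 10, against 10.7% of all genes, and no call by edgeR. Fscn1, which tumour cells may also express, rose under both treatments and made up most of their summed level in tumours. The airway and alveolar epithelium markers summed to 559 to 20034 and 2393 to 9088 CPM in VEH tumours. In HDM tumours they summed to 23.8 to 1192 and 48.5 to 2596 CPM, so both sums were lower there on average. For the alveolar sum this rests on tumour VEH replicate 2 (9088 CPM) and tumour HDM replicate 3 (48.5 CPM). The other libraries were at 2393 and 2545 CPM under VEH and 2526 and 2596 CPM under HDM. How much of any member's difference goes with these sums was not tested.

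The genes most like a member were found by the root-mean-square difference of centred log2 CPM over the 12 libraries, among 12482 or 12483 named protein-coding genes with a mean log2 CPM of at least 1. Nearest to Cxcl9 were Cxcl10 (1.39 log2 units), Mmp13 (1.57), Zbp1 (1.64), Sox9 (1.72) and Lrrc15 (1.73), where Cxcl9 itself had an SD of 3.34. Nearest to Cxcl10 (SD 2.18) were Oas3 (0.655), Mmp13 (0.682), Zbp1 (0.693), Ifi211 (0.795) and Ifi204 (0.814). Zbp1, like Cxcl9, was low in normal tissue (8.502 CPM under VEH), high in VEH tumours (153 CPM) and lower in HDM tumours (19.0 CPM), whereas Sox9 was about as high in HDM tumours as in VEH tumours (46.6 and 40.6 CPM). Nearest to Cxcr3 (SD 1.00) were Ebi3, Thy1, Cd69, Plbd1 and Gpr132, at 0.494 to 0.563. For Ifng (SD 1.44) they were Iigp1c, Nlrc5, Ms4a4c, Trp53i11 and Ctsw, at 0.830 to 0.902.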

How the data were processed

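RNA sequencing of 12 mouse lung libraries gave, per the file headers, a single table of featureCounts output, and the deposited values used here are raw whole-number counts per gene with a gene length in bases (other numeric column, per the file headers). Per the submitters' processing notes, STAR, Trim Galore, featureCounts of Subread and build mm39 were used; versions, annotation and the strand setting of the counting are not given in the sources used here. Symbols came from GENCODE M39 (GRCm39), which held 78168 of the 78298 identifiers and all 8 members.

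Counts were scaled by TMM and fitted with edgeR 4.0.16 (R 4.3.3): quasi-likelihood F-test, robust, 1 coefficient per group, all 12 libraries, genes kept by filterByExpr at a minimum count of 10, Benjamini-Hochberg adjustment over 22190 genes, threshold 0.05. TPM used the deposited lengths, which equal the GENCODE exon length for 4 of the 8 members. For nearest genes, a prior count of 2 was added. Intervals cover 95%, and a count of 0 allows 3 counts. The fit was tested on simulated data. Alternatives were DESeq2 1.42.0, other scaling and filters, blocks, and leaving out libraries; counts of targets and T and NK cell markers under these were added after seeing the data.

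The text names all members, genes of the pathway lists, and the 5 genes nearest to each of 4 members. Members and lists were chosen with earlier results of these data known. One item of a pathway list is not reported here.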

Additional observations from a re-analysis of the deposited data

How the results depend on the processing

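Of 622 recomputed member log2 fold changes, 573 kept direction and side of the threshold, 15 lost the call, 10 gained it and 24 changed sign; the causes were not tested. The number of members called in tumours against normal tissue was 3 under VEH, and 2 to 4 over all alternatives. It was 4 by DESeq2 and without tumour VEH replicate 2, where Ifng was called, which is a description only. Under HDM it was 4, and it was 5 with DESeq2's size factors, among genes with at least 10 counts in every library and by DESeq2, 2 with no filter on low counts, 2 with the prefix block, 1 without the 4 libraries of conflicting prefixes, and 2 to 4 when 1 library was left out (2 without tumour HDM replicate 1 or normal HDM replicate 2). Between tumour groups it was 0, and 3 by DESeq2. Jak1 lost its call under HDM with the prefix block and without the 4 libraries.

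Sign changes among members not called were as follows. For tumour against normal under VEH, Ifngr2 was 0.024 with library size only and Jak2 -0.044 with at least 10 counts in every library. When 1 library was left out, Ifngr2 ranged from -0.18 to 0.019 and Jak2 from -0.064 to 0.26, and under HDM Ifng ranged from -3.15 to 3.01. For HDM against VEH in normal tissue, Ifngr2 was 0.047 with library size only, 0.012 with at least 10 counts, 0.023 with the prefix block and 0.0039 with only the compared groups. There Cxcl9 was 0.0029 with the replicate block, 1.081 with the prefix block and 0.88 without the 4 libraries, and Cxcl10 was 0.19 and Cxcr3 -0.054 without the 4 libraries. With 1 library left out Cxcl9 ranged from -1.17 to 1.44, Cxcl10 from -1.47 to 0.15, Cxcr3 from -0.44 to 0.64 and Ifngr2 from -0.075 to 0.099. In tumours Jak1 was -0.24 with the prefix block.

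Deviations from the group means had r from -0.355 to 0.303 over 18 pairs of same-numbered replicates (8 above 0.1). For libraries of 1 prefix r ran from -0.219 to 0.179 over 6 pairs (3 above 0.1). These values cannot tell whether the samples are paired, since tumour and lung of 1 mouse need not deviate together. Over all genes, HDM against VEH in tumours gave 21 calls, 1 with the replicate block, 0 with the prefix block, 8 with library size only, 52 with no filter, 53 with at least 10 counts, 0 with only the compared groups, 1311 by DESeq2 and 0 to 24 with 1 library left out. Tumour against normal under VEH gave 8624, and 5603 without the 4 libraries or 5733 without tumour VEH replicate 1. Ifng is limited by depth, with 61 counts in all.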

Other observations

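Other interferon genes were nearly absent from the counts. Of 20 protein-coding type I and type III interferon genes, 0 had enough counts to be tested and 15 were at 0 in all 12 libraries. The highest count in a library was 6, for Ifnz in tumour HDM replicate 3. Ifnb1, the first type I interferon made by many cells, had 4 counts, all in tumour VEH replicate 1.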
